A study of Mus musculus with 8 samples.

Results

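The 32 genes described here are listed as markers of macrophages and other immune cells of the mouse testis. Csf1 and Il34 among them encode ligands of a macrophage receptor and are called markers only for short. The genes were chosen by name, as a list of markers, from the 21949 genes of the deposited tables. All 32 were found and all 32 passed the filter on low counts, which kept 16051 genes. The tissue was whole testis, taken on postnatal day 24 from C57BL/6 mice that lacked Miwi (Miwi-null) or carried it (wild type, WT). Miwi is a germ cell protein that binds piRNAs and is encoded by Piwil1. Testis lysates were used to sequence total RNA and ribosome footprints (RPF, the stretches of mRNA that ribosomes protect from nuclease). Each of the 4 combinations, Miwi-null RNA, WT RNA, Miwi-null RPF and WT RPF, had 2 libraries. The labels give no treatment and do not describe the null allele. Since no label ties a library to an animal, the p-values reflect only how these libraries spread, which may in part be technical.

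Macrophages live in the space between the seminiferous tubules, beside the testosterone-producing Leydig cells, and on the tubule wall. They depend on signals through the receptor CSF1R, whose ligands are CSF1 and IL34, and on the transcription factor PU.1, the product of Spi1. They take up dying cells and debris, secrete the complement subunit C1q, digest what they take up with lysozyme and cathepsins, and show peptides to T cells on MHC class II molecules. In the testis, macrophages with more MHC class II on their surface have been described at the tubule wall, and macrophages with more CSF1R and CD206 between the tubules.

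Library totals ran from 11130949 to 15592797 counts in RNA and from 11662661 to 28334622 in RPF, so that 1 count stood for 0.0353 to 0.0898 CPM before scaling. Levels are given in CPM, a gene's count relative to the TMM-scaled library total. Piwil1, the targeted gene, was at 3.52 and 2.27 CPM in Miwi-null RNA, against 551.5 and 533 CPM in WT RNA, as the labels have it. RPF replicates differed more than RNA replicates: the chi-square per gene was 22.6 in Miwi-null RPF and 44.7 in WT RPF, against 1.18 in Miwi-null RNA and 3.86 in WT RNA. Because 1 dispersion per gene was fitted over both assays, errors of RPF changes may be too small and those of RNA changes too large. TMM centres the bulk of genes, so every change is relative to it. Of the genes called in RNA, 44.2% were higher, against 55.1% without TMM factors, and of those called in translational efficiency 49.3% were higher, against 29.2% without them. Markers of other cell types of the testis differed between the genotypes too. Over all genes tested, 16.5% were called higher and 20.8% lower in RNA, and 12% higher and 13.4% lower in RPF. Of 12 Leydig cell markers, 7 were higher and 1 lower in Miwi-null RNA, and their summed level was 2740 and 2754 CPM in Miwi-null RNA, against 1387 and 1374 CPM in WT RNA. Of 12 spermatid markers, 10 were lower in Miwi-null RNA, where they summed to 3449 and 3489 CPM, against 17920 and 17640 CPM in WT RNA. Of 12 peritubular myoid markers 10 were lower in RNA, of 12 Sertoli cell markers 7, and of 12 endothelial markers 5, with none higher. The myoid list summed to 309 and 312 CPM in Miwi-null RNA, against 786 and 747 CPM in WT RNA. The Sertoli list summed to 1250 and 1265 CPM in Miwi-null RNA, against 1779 and 1729 CPM in WT RNA. Most of that sum was Clu, at 979 and 992 CPM in Miwi-null RNA, against 1305 and 1247 CPM in WT RNA. Clu is also the gene lower in RNA in the complement list below. In RPF the Sertoli sums overlapped, at 4735 and 4762 CPM in Miwi-null, against 4589 and 4776 CPM in WT libraries. The endothelial list summed to 63.85 and 60.7 CPM in Miwi-null RNA, against 94.3 and 84.5 CPM in WT RNA. In RPF, 9 Leydig markers were higher, and 12 spermatid, 5 myoid, 9 endothelial and 2 Sertoli markers lower, with 1 Sertoli marker higher. The Sertoli calls in RPF are 25% of that list, near the 25.4% of all genes. None of the markers in these lists was at 0 in any library. The part of these shifts in the marker changes given next was not tested. In whole tissue, fewer cells of a type and less RNA per cell cannot be told apart.

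The markers did not move as a block: some were higher, some lower and most passed no test. In total RNA, 7 of 32 were higher in Miwi-null testes (Adgre1, Cd163, Fcgr3, H2-Aa, H2-Eb1, Lyz2 and Mpeg1) and 3 were lower (Aif1, Csf1 and Spi1), by edgeR's quasi-likelihood test at a Benjamini-Hochberg adjusted p under 0.05. That is 31.2% of the markers, beside 37.3% of all genes tested, of which 16.5% were higher and 20.8% lower. In footprints 7 were higher (Cd163, Cd74, H2-Aa, H2-Ab1, H2-Eb1, Lyz2 and Mpeg1) and 3 lower (Aif1, Folr2 and Mrc1), again 31.2%, beside 25.4% of all genes, with 12% higher and 13.4% lower. These shares lie near the background and are no result about the list. The median log2 change of the 32 was -0.02 in RNA, beside -0.07 over all genes, and 0.03 in footprints, beside -0.0046 over all genes. Higher in both assays were 5 markers, the lysozyme gene Lyz2, the scavenger receptor gene Cd163, the class II genes H2-Aa and H2-Eb1, and the pore protein gene Mpeg1. Aif1 was lower in both. Of the rest, 4 were called in RNA and not in footprints, 4 in footprints and not in RNA, and 18 in neither assay nor in their ratio.

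**Figure D1:**
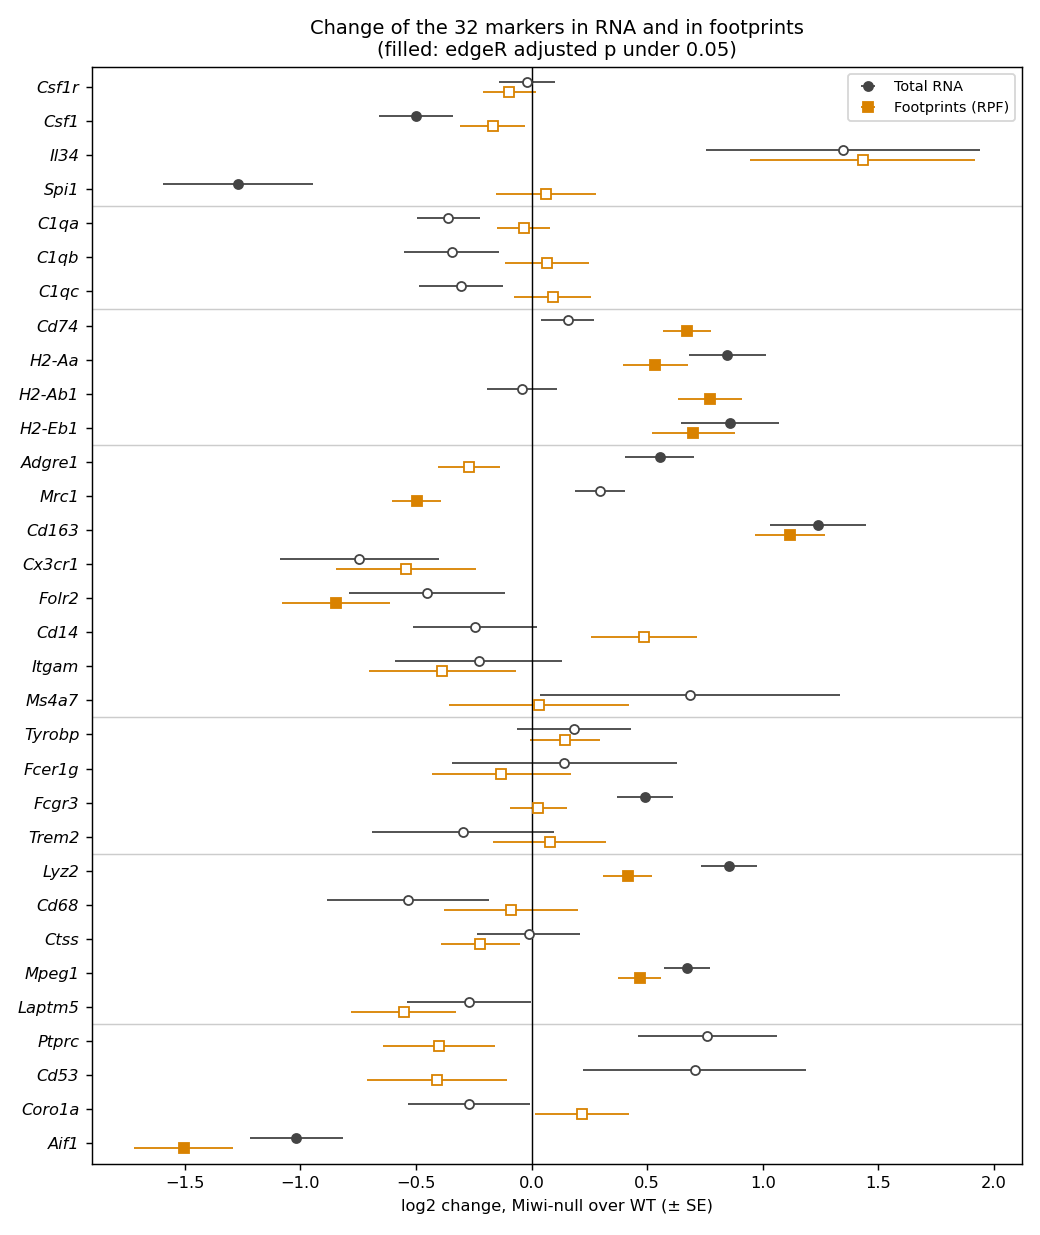
Log2 change of each of the 32 markers, Miwi-null over WT, with its standard error, in total RNA (grey circles) and in footprints (orange squares), grouped by role from the CSF1 axis at the top to leukocyte genes at the bottom. Filled symbols passed an edgeR adjusted p under 0.05; the 4 MHC class II genes are filled in footprints and to the right of 0, and Aif1 is filled and to the left of 0 in both assays.

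Of the 4 genes of the CSF1 axis, the receptor gene showed no called change, while RNA of the ligand gene Csf1 and of Spi1 was lower in Miwi-null testes. In this and the following paragraphs, each log2 change is Miwi-null over WT with its standard error (SE), from 2 libraries a group, and each p is edgeR's adjusted p. Csf1r was at 24.5 and 24.6 CPM in Miwi-null RNA, against 25.3 and 24.4 CPM in WT RNA, and at 33.8 and 33.3 CPM in Miwi-null RPF, against 39.1 and 32.4 CPM in WT RPF. Its groups overlapped in both assays, with a log2 change of -0.02 ± 0.12 in RNA (adjusted p = 0.919) and -0.10 ± 0.12 in RPF (adjusted p = 0.589). Csf1, the ligand that keeps macrophages alive, was at 5.97 and 5.32 CPM in Miwi-null RNA, against 7.52 and 8.48 CPM in WT RNA. Both null libraries lay below both WT libraries, and the change was -0.50 ± 0.16 (adjusted p = 0.0385). In RPF, Csf1 was at 10 and 8.91 CPM in Miwi-null libraries, against 10.9 and 10.1 CPM in WT libraries, a change of -0.17 ± 0.14 (adjusted p = 0.424). The RNA call of Csf1 was lost in 11 of 17 alternatives, among them leaving out Miwi-null RNA 1 (adjusted p = 0.102), Miwi-null RNA 2 (adjusted p = 0.2), WT RNA 1 (adjusted p = 0.0754), WT RNA 2 (adjusted p = 0.165), Miwi-null RPF 2 (adjusted p = 0.0762) or WT RPF 1 (adjusted p = 0.0624), and scaling without TMM (adjusted p = 0.0912).

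Spi1, which encodes the macrophage transcription factor PU.1, had 10 and 11 counts in Miwi-null RNA, against 35 and 24 counts in WT RNA. On the CPM scale these are 0.766 and 0.959 in Miwi-null RNA, against 2.35 and 1.79 in WT RNA. The null libraries lay below both WT libraries, with a log2 change of -1.27 ± 0.32 (adjusted p = 0.0153). Its footprints were at 3.04 and 3.81 CPM in Miwi-null RPF, against 3.09 and 3.69 CPM in WT RPF, groups that overlapped (log2 change 0.06 ± 0.22, adjusted p = 0.87). The difference between the assays, which is the change in translational efficiency (TE), was 1.33 ± 0.39 and did not pass (adjusted p = 0.0539), except without WT RPF 2 (1.46, adjusted p = 0.0356). The RNA call was lost without Miwi-null RNA 1 (adjusted p = 0.111), without Miwi-null RNA 2 (adjusted p = 0.0545) or without WT RNA 1 (adjusted p = 0.0999). Il34, the other ligand of CSF1R, was the least counted marker, with 12 and 6 counts in Miwi-null RNA, against 2 and 6 in WT RNA, and 9 and 21 counts in Miwi-null RPF, against 9 and 4 in WT RPF. The 2 counts of WT RNA 1 lie under the limit of 3 counts that a count of 0 allows. Its changes of 1.35 ± 0.59 in RNA (adjusted p = 0.109) and 1.43 ± 0.49 in RPF (adjusted p = 0.0636) passed no test. From the other genes of CSF1 receptor ligands and signalling, 8 of 11 were tested. In RNA, 2 were higher and 2 lower, and in RPF 2 were higher and 1 lower. Pik3cd, which encodes a kinase subunit, was at 231 and 233.6 CPM in Miwi-null RNA, against 92.7 and 76.3 CPM in WT RNA (log2 change 1.46 ± 0.12, adjusted p = 0.0001). Which cells held this RNA was not tested. The pan-leukocyte gene Ptprc was at 3.14 and 2.96 CPM in the same Miwi-null libraries, against 1.75 and 1.86 CPM in WT RNA. This level does not show which cells held the Pik3cd RNA. The calls in this list are 50% in RNA and 37.5% in RPF, beside 37.3% and 25.4% of all genes.

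PU.1 binds DNA at a purine-rich core, and the letters AGGAAGT were searched on both strands (they read ACTTCCT on the opposite one) in the 250 bases before each start site in RefSeq, on GRCm38.p6. Of the 32 markers, 23 had a window there, 28 windows in all, and 7 windows of 6 genes held the letters (C1qb, C1qc, Folr2, Lyz2, Mrc1 and Ptprc), beside 7.69% of all 32851 windows. A match is a description of the letters and says nothing about binding. The windows of a gene higher in both assays (Lyz2), of a gene with no call (C1qb) and of a gene lower in footprints (Mrc1) are shown because all 3 hold the same letters, in capitals. They lie at chr10:117282273-117282522 on the minus strand, chr4:136886201-136886450 on the minus strand and chr2:14229164-14229413 on the plus strand, each printed 5′ to 3′ along its gene:
Lyz2: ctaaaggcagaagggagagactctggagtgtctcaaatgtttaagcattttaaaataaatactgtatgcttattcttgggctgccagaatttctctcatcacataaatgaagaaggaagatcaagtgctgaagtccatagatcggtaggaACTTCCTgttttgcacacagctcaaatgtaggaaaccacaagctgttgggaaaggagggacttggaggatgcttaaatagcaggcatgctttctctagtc
C1qb: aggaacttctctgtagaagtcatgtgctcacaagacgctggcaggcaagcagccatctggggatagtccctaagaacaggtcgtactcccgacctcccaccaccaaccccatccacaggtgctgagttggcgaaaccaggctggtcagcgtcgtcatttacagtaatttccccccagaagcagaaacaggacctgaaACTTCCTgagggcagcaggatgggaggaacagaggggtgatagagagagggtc
Mrc1: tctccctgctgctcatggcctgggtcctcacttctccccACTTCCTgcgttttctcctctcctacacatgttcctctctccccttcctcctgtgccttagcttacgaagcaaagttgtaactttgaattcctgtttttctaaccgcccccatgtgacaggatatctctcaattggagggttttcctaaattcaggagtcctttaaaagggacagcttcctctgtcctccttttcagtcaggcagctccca
The letters end 94 bases before the start in Lyz2, 47 in C1qb and 205 in Mrc1, in each case on the strand opposite to the gene.

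None of the 3 complement C1q genes was called in RNA, in footprints or in TE by edgeR, nor under any of the 17 alternatives, DESeq2's Wald test among them. The crossed pairing of the RPF libraries, added after the data were seen, called all 3 lower in RNA and 2 of them higher in TE. Their products C1qA, C1qB and C1qC assemble into the subunit that binds immune complexes and dying cells, and tissue macrophages are its main source. The genes lie side by side on chromosome 4, from position 136880126 to 136898844. C1qa was at 9.11 and 10.6 CPM in Miwi-null RNA, against 13.2 and 12.1 CPM in WT RNA, and the groups did not overlap. The other 2 did not overlap in RNA either: C1qb was at 12.9 and 13 CPM in Miwi-null RNA, against 18.3 and 14.6 CPM in WT RNA, and C1qc at 11 and 11.4 CPM in Miwi-null RNA, against 14 and 13.7 CPM in WT RNA. The log2 changes were -0.36 ± 0.14 in C1qa (adjusted p = 0.068), -0.35 ± 0.21 in C1qb (adjusted p = 0.223) and -0.31 ± 0.18 in C1qc (adjusted p = 0.226), of which that of C1qa alone had an unadjusted p under 0.05 (0.0279). In footprints the groups of all 3 overlapped, with log2 changes of -0.03 ± 0.12, 0.07 ± 0.18 and 0.09 ± 0.17. C1qb footprints were at 64.8 and 52.4 CPM in Miwi-null RPF, against 46.5 and 65.3 CPM in WT RPF. Of 14 other complement genes tested, 3 were higher and 1 lower in RNA (28.6%, beside 37.3% of all genes), and 3 higher and 3 lower in RPF (42.9%, beside 25.4%). C3, the central component, was at 25.8 and 23.6 CPM in Miwi-null RNA, against 13 and 11.2 CPM in WT RNA (log2 change 1.03 ± 0.14), and C4b at 63.2 and 55.1 CPM in Miwi-null RNA, against 32.4 and 35.2 CPM in WT RNA (0.81 ± 0.11). Both are made by many cell types besides macrophages.

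All 4 MHC class II genes were called higher in footprints of Miwi-null testes, beside 12% of all genes tested. The markers were chosen with earlier results of these data known, so this count is not independent evidence. H2-Aa, H2-Ab1 and H2-Eb1 encode chains of the molecules that present peptides to helper T cells, and Cd74 the invariant chain that guides them through the cell. On GRCm38.p6 the first 3 lie on chromosome 17, H2-Ab1 at 34263227 to 34269418, H2-Aa at 34282744 to 34287823 and H2-Eb1 at 34305867 to 34316674. H2-Aa RNA was at 14 and 11.2 CPM in Miwi-null libraries, against 7.45 and 6.55 CPM in WT libraries, and its footprints at 48 and 43.5 CPM in Miwi-null RPF, against 29.3 and 33.9 CPM in WT RPF. Both null libraries lay above both WT libraries in each assay, with log2 changes of 0.85 ± 0.17 in RNA (adjusted p = 0.00472) and 0.54 ± 0.14 in RPF (adjusted p = 0.0235). H2-Eb1 RNA was at 10.6 and 9.32 CPM in Miwi-null libraries, against 5.37 and 5.66 CPM in WT libraries, and its footprints at 19.8 and 25.7 CPM in Miwi-null RPF, against 16 and 12.1 CPM in WT RPF. It too was separated in each assay, with log2 changes of 0.86 ± 0.21 in RNA (adjusted p = 0.0132) and 0.70 ± 0.18 in RPF (adjusted p = 0.0212).

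H2-Ab1 and Cd74 differed from these in RNA. H2-Ab1 RNA was at 12.8 and 11.9 CPM in Miwi-null libraries, against 13.8 and 11.5 CPM in WT libraries, groups that overlapped (log2 change -0.04 ± 0.15, adjusted p = 0.851). Its footprints were at 25.4 and 27.6 CPM in Miwi-null RPF, against 16.7 and 14.3 CPM in WT RPF, and both null libraries were above both WT libraries (0.77 ± 0.14, adjusted p = 0.00412). The difference between the assays passed its own test in H2-Ab1, with a TE change of 0.81 ± 0.20 (adjusted p = 0.0325). Cd74 RNA was at 24.3 and 23 CPM in Miwi-null libraries, against 22.4 and 20 CPM in WT libraries, which were just apart but not called (0.16 ± 0.11, adjusted p = 0.314). Cd74 footprints were at 115 and 118 CPM in Miwi-null RPF, against 77.3 and 69.4 CPM in WT RPF, and the null libraries were well above the WT libraries (0.67 ± 0.10, adjusted p = 0.00184). Per coding length, Cd74 stood next to Lyz2 in footprints among the 32, at 133.5 ± 8.06 FPKM in Miwi-null and 86.6 ± 10.2 FPKM in WT testes (SD, n = 2 each, in the authors' deposited unit). Its TE change of 0.52 ± 0.15 did not pass (adjusted p = 0.0551), except without WT RPF 1 (0.56, adjusted p = 0.0375).

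The footprint calls of Cd74 and H2-Ab1 stood under all 17 alternatives. H2-Aa lost its RNA call without Miwi-null RNA 1 (adjusted p = 0.0503) and its RPF call without Miwi-null RPF 1 (adjusted p = 0.0993), without WT RPF 1 (adjusted p = 0.0532) or when the RPF libraries were fitted alone (adjusted p = 0.0699). H2-Eb1 lost its RNA call without Miwi-null RNA 1 (adjusted p = 0.0897), WT RNA 1 (adjusted p = 0.0911) or WT RNA 2 (adjusted p = 0.0642), and its RPF call without Miwi-null RPF 2 (adjusted p = 0.124) or with RPF fitted alone (adjusted p = 0.0963). The TE call of H2-Ab1 was lost in 7 of 17 alternatives, among them without Miwi-null RNA 1 (adjusted p = 0.107), Miwi-null RNA 2 (adjusted p = 0.138), WT RNA 1 (adjusted p = 0.14), WT RNA 2 (adjusted p = 0.0567) or Miwi-null RPF 2 (adjusted p = 0.1), and without TMM factors (adjusted p = 0.0851).

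Class II promoters carry a conserved set of elements, of which the Y box is an inverted CCAAT element. Of the marker windows, the letters CTGATTGG (CCAATCAG on the other strand) were found in those of H2-Aa and H2-Eb1, 2 of 28 windows, beside 3.83% of all windows. These 2 windows are shown because they belong to the class II genes whose RNA was higher, with the Y box letters in capitals; they lie at chr17:34287824-34288073 on the minus strand and chr17:34305617-34305866 on the plus strand of GRCm38.p6:
H2-Aa: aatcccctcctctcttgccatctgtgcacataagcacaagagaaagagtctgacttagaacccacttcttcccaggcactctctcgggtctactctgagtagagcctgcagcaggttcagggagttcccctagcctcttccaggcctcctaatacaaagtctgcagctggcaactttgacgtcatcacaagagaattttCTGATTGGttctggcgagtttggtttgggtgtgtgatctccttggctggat
H2-Eb1: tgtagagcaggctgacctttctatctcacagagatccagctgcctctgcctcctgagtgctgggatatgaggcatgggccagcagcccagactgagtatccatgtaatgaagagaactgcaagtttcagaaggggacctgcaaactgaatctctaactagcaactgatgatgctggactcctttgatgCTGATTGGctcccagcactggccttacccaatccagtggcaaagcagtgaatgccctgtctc
The letters span bases 51 to 44 before the start in H2-Aa and 62 to 55 in H2-Eb1, on the strand of the gene in both. They were chosen after the sequences were seen. Not every marker had a window, and whether H2-Ab1 and Cd74 had one is not given here. Their absence from the matches therefore does not show that they lack the letters. A link between the letters and the RNA changes was not tested. Among the other genes of class II processing, 6 of 10 were tested, and 1 was higher and 1 lower in RNA (33.3%, beside 37.3% of all genes), and in RPF edgeR called 0, with 1 at an unadjusted p under 0.05. H2-DMa, which encodes a chain of the molecule that loads peptides onto class II, was at 16.1 and 16.6 CPM in Miwi-null RNA, against 7.59 and 6.4 CPM in WT RNA (log2 change 1.22 ± 0.17, adjusted p = 0.0008). Its footprints were at 4.2 and 4.5 CPM in Miwi-null RPF, against 5.36 and 4.14 CPM in WT RPF, and its TE change was -1.36 ± 0.25 (adjusted p = 0.0098). Of 13 MHC class I presentation genes, 1 was higher in RNA (7.69%, beside 37.3% of all genes), and 1 was higher and 1 lower in RPF (15.4%, beside 25.4%).

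Among the 8 surface receptors, Cd163 was higher in both assays while Mrc1 and Folr2 were lower in footprints and Adgre1 was higher in RNA. Cd163, the receptor that clears haemoglobin bound to haptoglobin, was at 3.67 and 4.18 CPM in Miwi-null RNA, against 1.81 and 1.49 CPM in WT RNA, and at 10.6 and 10.4 CPM in Miwi-null RPF, against 4.65 and 5.05 CPM in WT RPF. The null libraries were above the WT libraries in both assays, by 1.24 ± 0.21 in RNA (adjusted p = 0.00217) and 1.12 ± 0.15 in RPF (adjusted p = 0.000886), and both calls stood under all 17 alternatives. Folr2, a folate receptor of resident macrophages, was at 4.29 and 4.51 CPM in Miwi-null RPF, against 7.81 and 8.11 CPM in WT RPF. Both null footprint libraries were below both WT libraries, by -0.85 ± 0.23 on the log2 scale (adjusted p = 0.0289), a call that was lost without Miwi-null RPF 1 (adjusted p = 0.0886) or Miwi-null RPF 2 (adjusted p = 0.106) and in DESeq2's Wald test (adjusted p = 0.0607). Folr2 RNA, at 1.15 and 2.27 CPM in Miwi-null libraries, against 1.88 and 2.75 CPM in WT libraries, overlapped (-0.45 ± 0.34, adjusted p = 0.325).

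Mrc1 encodes CD206, the mannose receptor, and its RNA and footprints moved apart. Its RNA was at 60.25 and 56.3 CPM in Miwi-null libraries, against 43.9 and 51 CPM in WT libraries, apart but not called (log2 change 0.30 ± 0.11, adjusted p = 0.0592). Its footprints were at 64.3 and 64.3 CPM in Miwi-null RPF, against 88.2 and 93.3 CPM in WT RPF, and the null libraries were clearly below (-0.50 ± 0.11, adjusted p = 0.00921). The TE change was -0.79 ± 0.15 (adjusted p = 0.0116). The RNA difference passed in 7 of 17 alternatives, among them without TMM factors (adjusted p = 0.0251), without Miwi-null RPF 2 (adjusted p = 0.0385), without WT RPF 1 (adjusted p = 0.0187), without WT RPF 2 (adjusted p = 0.0428) and with RNA fitted alone (adjusted p = 0.000595). The footprint call was lost without Miwi-null RPF 2 (adjusted p = 0.0515) and with RPF fitted alone (adjusted p = 0.057), and the TE call without Miwi-null RNA 1 (adjusted p = 0.0796), Miwi-null RNA 2 (adjusted p = 0.0572) or WT RNA 1 (adjusted p = 0.0661).

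Adgre1, which encodes the classical mouse macrophage antigen F4/80, was at 8.42 and 8.71 CPM in Miwi-null RNA, against 5.71 and 5.95 CPM in WT RNA. The RNA groups did not overlap (log2 change 0.55 ± 0.15, adjusted p = 0.019). Its footprints were at 7.32 and 8.07 CPM in Miwi-null RPF, against 8.96 and 9.81 CPM in WT RPF, lower in both null libraries but not called (-0.27 ± 0.14, adjusted p = 0.18). As in Mrc1, the change in TE was negative, -0.83 ± 0.20 (adjusted p = 0.0291). Leaving out any of the 4 RNA libraries ended both the RNA call (adjusted p = 0.0847 without Miwi-null RNA 1, 0.103 without Miwi-null RNA 2, 0.104 without WT RNA 1, 0.0698 without WT RNA 2) and the TE call (adjusted p = 0.107, 0.122, 0.117 and 0.0836 in the same order), as did DESeq2's Wald test (adjusted p = 0.061 in RNA and 0.0766 in TE). Leaving out Miwi-null RPF 1 ended the TE call too (adjusted p = 0.0724), which was lost in 8 of 17 alternatives in all. The other receptors, the fractalkine receptor gene Cx3cr1, the endotoxin co-receptor gene Cd14, the integrin gene Itgam and the membrane gene Ms4a7, passed no edgeR test in any contrast. Their RNA averaged 1.14 to 3.01 CPM in Miwi-null libraries and 0.704 to 5.08 CPM in WT libraries, and the log2 changes ran from -0.75 ± 0.35 (Cx3cr1) to 0.69 ± 0.65 (Ms4a7) in RNA and from -0.54 ± 0.30 (Cx3cr1) to 0.49 ± 0.23 (Cd14) in RPF. Cx3cr1 passed in RNA when the RNA libraries were fitted alone (adjusted p = 0.017). Ms4a7 passed in RPF without WT RPF 1 (1.07, adjusted p = 0.0277), against 0.03 with it.

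**Figure D2:**
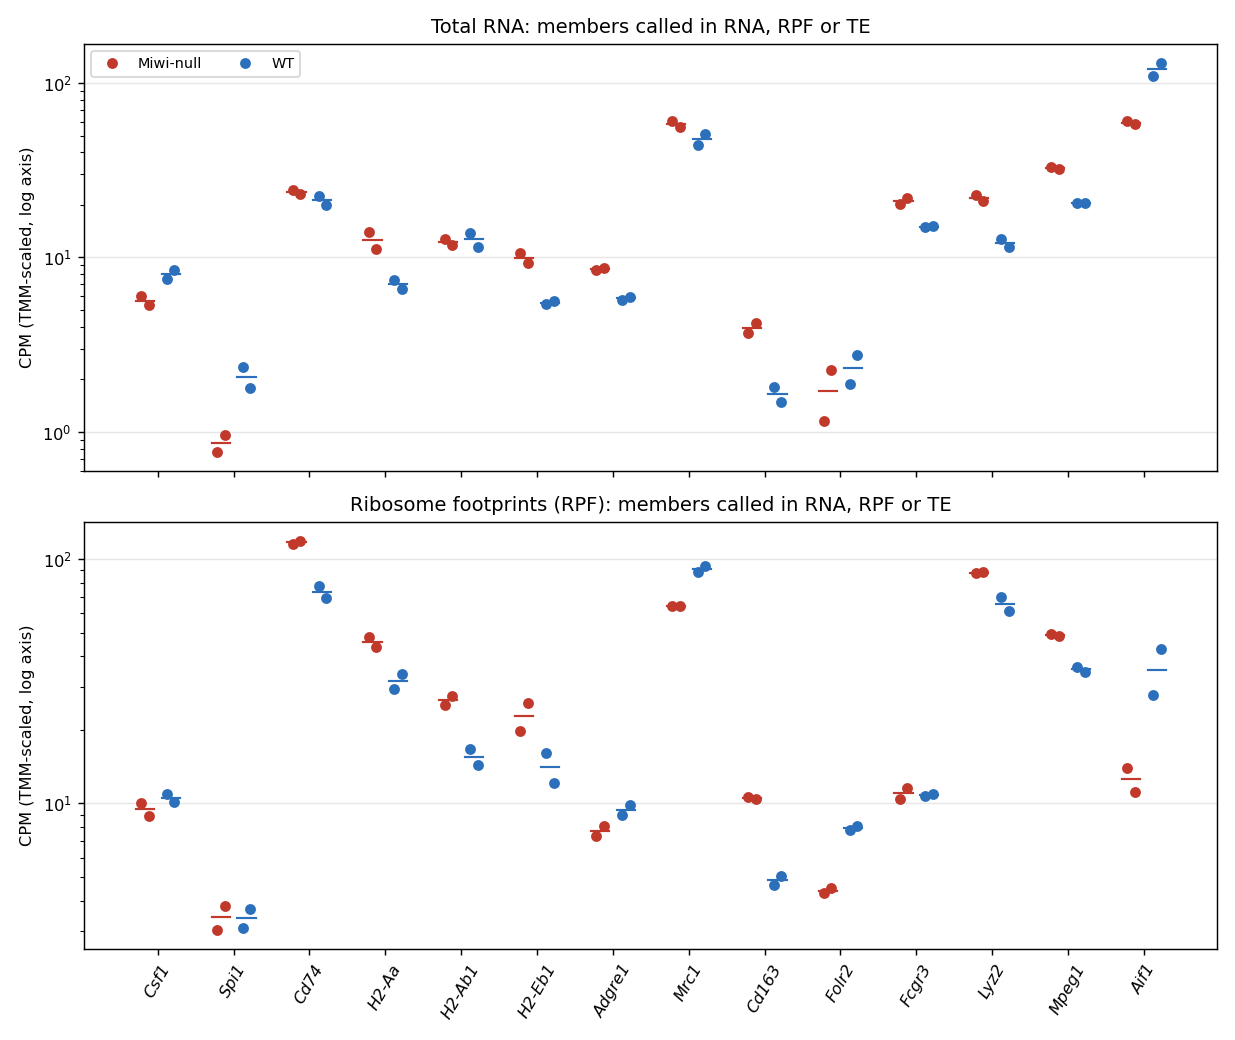
CPM of the 14 markers called in RNA, footprints or TE, on a log axis, in total RNA (top) and in footprints (bottom); each point is a library, red for Miwi-null and blue for WT, and the short lines are means of 2. Cd163 and Mpeg1 have the red points above the blue in both panels and Aif1 below, while Mrc1 has them above in RNA and below in footprints.

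Of the 4 Fc receptor and ITAM adaptor genes, Fcgr3 alone was called, in RNA. Fcgr3 encodes a low-affinity receptor for IgG that signals through the gamma chain Fcer1g, and Tyrobp is the adaptor of Trem2. Fcgr3 was at 20.3 and 21.9 CPM in Miwi-null RNA, against 14.9 and 15.1 CPM in WT RNA, with the null libraries above (log2 change 0.49 ± 0.12, adjusted p = 0.0137). In footprints it was at 10.4 and 11.5 CPM in Miwi-null RPF, against 10.8 and 10.9 CPM in WT RPF, and the groups overlapped (0.03 ± 0.12, adjusted p = 0.892). The TE change of -0.46 ± 0.17 did not pass (adjusted p = 0.11). The RNA call was lost on leaving out Miwi-null RNA 1 (adjusted p = 0.057), Miwi-null RNA 2 (adjusted p = 0.107), WT RNA 1 (adjusted p = 0.082) or WT RNA 2 (adjusted p = 0.0671). Close copies share sequence with Fcgr3, and how fragments that map more than once were counted is not given in the sources used here. Of these, Fcgr2b was at 3.98 and 2.96 CPM in Miwi-null RNA, against 3.29 and 2.16 CPM in WT RNA, and Fcgr4 at 0.0766 and 0 CPM in Miwi-null RNA, against 0.201 and 0.0744 CPM in WT RNA. Tyrobp, Fcer1g and Trem2 had little RNA, 0.842 to 2.3 CPM in Miwi-null libraries and 1.34 to 2.15 CPM in WT libraries, and more footprints. Tyrobp footprints were at 17 and 14 CPM in Miwi-null RPF, against 13.1 and 14.8 CPM in WT RPF, which overlapped. The log2 changes of Tyrobp, Fcer1g and Trem2 lay between -0.30 ± 0.39 and 0.18 ± 0.25 in RNA and between -0.13 ± 0.30 and 0.15 ± 0.15 in RPF, and none passed. Of 10 further genes of Fc receptor and ITAM signalling tested, 2 were lower in RNA and 2 in RPF (20% in each, beside 37.3% and 25.4% of all genes), and none was higher.

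Of the 5 genes of the lysosome and of killing, the lysozyme gene Lyz2 and Mpeg1, whose product perforates engulfed bacteria, were higher in both assays. Lyz2 RNA was at 22.7 and 21.2 CPM in Miwi-null libraries, against 12.8 and 11.5 CPM in WT libraries, and its footprints at 87.4 and 88.1 CPM in Miwi-null RPF, against 70.1 and 61.3 CPM in WT RPF. The null libraries were above in both assays, by 0.86 ± 0.12 in RNA (adjusted p = 0.000881) and 0.42 ± 0.11 in RPF (adjusted p = 0.0213). Mpeg1 RNA was at 32.9 and 32.2 CPM in Miwi-null libraries, against 20.4 and 20.5 CPM in WT libraries, and its footprints at 49.1 and 48.5 CPM in Miwi-null RPF, against 36 and 34.6 CPM in WT RPF. Its replicates lay close together and its groups far apart, with log2 changes of 0.67 ± 0.10 in RNA (adjusted p = 0.00106) and 0.47 ± 0.09 in RPF (adjusted p = 0.00681). Both RNA calls stood under all 17 alternatives. The RPF call of Mpeg1 was lost with RPF fitted alone (adjusted p = 0.0649), and that of Lyz2 there (adjusted p = 0.105), without TMM factors (adjusted p = 0.0557), and without Miwi-null RNA 1 (adjusted p = 0.0508), Miwi-null RNA 2 (adjusted p = 0.0508), Miwi-null RPF 1 (adjusted p = 0.0657), Miwi-null RPF 2 (adjusted p = 0.0634) or WT RPF 2 (adjusted p = 0.0583). The TE change of Lyz2, -0.44 ± 0.16 (adjusted p = 0.103), passed without WT RPF 2 (-0.53, adjusted p = 0.0429) and with the trend on coding length removed (-0.61, adjusted p = 0.0384).

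Lyz2 has a near copy, Lyz1, whose RNA was at 0 and 0.174 CPM in Miwi-null libraries, against 0.0671 and 0.0744 CPM in WT libraries. Lyz1 footprints were at 18.8 and 27.5 CPM in Miwi-null RPF, against 21.3 and 13 CPM in WT RPF. Lyz1 thus held footprint counts and almost no RNA counts, and the division of counts between the copies is uncertain. With the counts of both added, an alternative chosen after the data were seen, the change was 0.85 in RNA (adjusted p = 0.00189) and 0.42 in RPF (adjusted p = 0.0362). The other 3 genes of the group, the endosomal gene Cd68, the protease gene Ctss and Laptm5, passed no edgeR test, with log2 changes of -0.53 ± 0.35, -0.01 ± 0.22 and -0.27 ± 0.27 in RNA and -0.09 ± 0.29, -0.22 ± 0.17 and -0.55 ± 0.23 in RPF. Laptm5 passed in RPF without Miwi-null RPF 2 (-1.03, adjusted p = 0.0204). Of 20 other lysosome genes, which nearly every cell uses, 4 were higher and 1 lower in RNA (25%, beside 37.3% of all genes), and 1 was higher and 2 lower in RPF (15%, beside 25.4%). Ctsh, a cathepsin gene, was at 13.5 and 14 CPM in Miwi-null RNA, against 8.19 and 7.89 CPM in WT RNA (log2 change 0.77 ± 0.15, adjusted p = 0.0041), and its footprints were higher too (0.72 ± 0.13, adjusted p = 0.0039).

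Aif1 encodes IBA1, an actin-binding protein of macrophages, and it went against the other markers called in both assays. Its RNA was at 60.25 and 57.9 CPM in Miwi-null libraries, against 109.8 and 129.5 CPM in WT libraries, and its footprints at 13.9 and 11.1 CPM in Miwi-null RPF, against 27.7 and 42.9 CPM in WT RPF. Both null libraries lay well below both WT libraries in each assay, with log2 changes of -1.02 ± 0.20 in RNA (adjusted p = 0.00461) and -1.51 ± 0.21 in RPF (adjusted p = 0.00118), and both calls stood under all 17 alternatives. The TE change was -0.49 ± 0.29 (adjusted p = 0.295), and -0.82 without WT RPF 1, where it passed (adjusted p = 0.0194). Per coding length, Aif1 also had the highest RNA level of the 32, 111 ± 2.97 FPKM in Miwi-null and 214.6 ± 24.3 FPKM in WT testes (SD, n = 2 each, in the authors' deposited unit). The next, Lyz2, was at 40.9 ± 1.87 FPKM in Miwi-null and 21.6 ± 1.7 FPKM in WT testes. Which cells of the whole testis held the Aif1 RNA was not tested, so its change cannot be read as one of macrophages. Yet Aif1 had the lowest ratio of footprint to RNA CPM of the 32, 0.231 and 0.192 in Miwi-null and 0.252 and 0.331 in WT testes. Its transcripts were not covered alike in the 2 assays: a transcript with a length of 385 bases (ENSMUST00000173106.1) held 5.38% of the RNA counts of the leading transcript (ENSMUST00000173324.7, 441 bases) in Miwi-null and 4.92% in WT testes, but 56.2% of its footprint counts in Miwi-null and 46.7% in WT testes. Aif1 was not alone in this. In Miwi-null testes a transcript of Fcgr3 (ENSMUST00000164179.1, 224 bases) held 3.1% in RNA and 45.2% in footprints. A transcript of Laptm5 (ENSMUST00000156225.7, 321 bases) held 0.971% and 43.9%. One of H2-Aa (ENSMUST00000174751.1, 519 bases) held 48.6% and 48.1%, without such a gap. A fragment was counted for every transcript of a gene it fell in, so these percentages are not shares of a total.

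The other leukocyte genes were Ptprc, which encodes the pan-leukocyte antigen CD45, Cd53 and Coro1a. Ptprc was at 3.14 and 2.96 CPM in Miwi-null RNA, against 1.75 and 1.86 CPM in WT RNA, and at 3.66 and 3.19 CPM in Miwi-null RPF, against 3.53 and 5.56 CPM in WT RPF. The RNA groups were apart and the footprint groups overlapped, with log2 changes of 0.76 ± 0.30 (adjusted p = 0.0785) and -0.40 ± 0.24 (adjusted p = 0.263). The RNA difference of Ptprc passed without TMM factors (adjusted p = 0.0432), without WT RPF 1 (adjusted p = 0.02) or WT RPF 2 (adjusted p = 0.0308), and with RNA fitted alone (adjusted p = 0.0105), the RPF difference without WT RPF 1 (-0.69, adjusted p = 0.0491), and the TE change of -1.16 ± 0.38 (adjusted p = 0.0777) without TMM factors (adjusted p = 0.0462) or WT RPF 1 (adjusted p = 0.0129). Cd53, a tetraspanin gene, and Coro1a, which encodes an actin-binding protein, passed no edgeR test in any contrast. Their log2 changes were 0.71 ± 0.48 and -0.27 ± 0.26 in RNA and -0.41 ± 0.30 and 0.22 ± 0.20 in RPF. Of 21 further pan-leukocyte genes tested, 1 was higher and 4 lower in RNA (23.8%, beside 37.3% of all genes), and 2 higher and 1 lower in RPF (14.3%, beside 25.4%). Cd37, a tetraspanin gene of leukocytes, was at 6.35 and 5.05 CPM in Miwi-null RNA, against 11.6 and 12.7 CPM in WT RNA (log2 change -1.09 ± 0.20, adjusted p = 0.003), and its footprints were lower too (-1.47 ± 0.22, adjusted p = 0.0015).

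Summed over the 32 markers, RNA was at 369 and 358 CPM in Miwi-null libraries, against 378 and 391 CPM in WT libraries. Aif1 made up 16.3% and 16.2% of that sum in Miwi-null RNA, against 29.1% and 33.1% in WT RNA. Without Aif1 the order was the opposite: the other 31 summed to 309 and 300.4 CPM in Miwi-null RNA, against 268 and 261.5 CPM in WT RNA. In footprints the 31 summed to 713 and 718 CPM in Miwi-null RPF, against 644 and 633 CPM in WT RPF, and Aif1 added at most 1.92% in Miwi-null and 6.34% in WT libraries. The sign of the sum in RNA therefore rests on 1 gene, and a few abundant genes set its size. The lymphocyte and neutrophil lists had little signal. T, B and NK lymphocyte markers summed to 15.2 and 14.3 CPM in Miwi-null RNA, against 14.5 and 14.4 CPM in WT RNA over 20 genes, of which 2 to 9 were at 0 in a library, and neutrophil markers to 4.21 and 4.36 CPM in Miwi-null RNA, against 4.97 and 4.17 CPM in WT RNA over 12 genes. Of 8 lymphocyte markers tested 1 was higher in RNA and 1 lower in RPF (12.5% in each). Of 4 neutrophil markers 1 was higher and 1 lower in RNA (50%) and 1 higher in RPF (25%). Over all genes the shares called were 37.3% in RNA, 25.4% in RPF and 14.9% in TE. Mast cell markers, 2 of 8 tested, had 1 lower in RNA (50%). They summed to 44.3 and 40.2 CPM in Miwi-null RNA, against 48.9 and 45.2 CPM in WT RNA. Red blood cell markers, 5 of 8 tested, had 4 lower in RNA (80%), 1 higher in RPF (20%) and 3 higher in TE (60%). Their sums were 47.8 and 46 CPM in Miwi-null RNA, against 83.3 and 71.15 CPM in WT RNA. In RPF the red cell sums overlapped, at 206.6 and 223.1 CPM in Miwi-null, against 227.3 and 218.5 CPM in WT libraries.

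**Figure D3:**
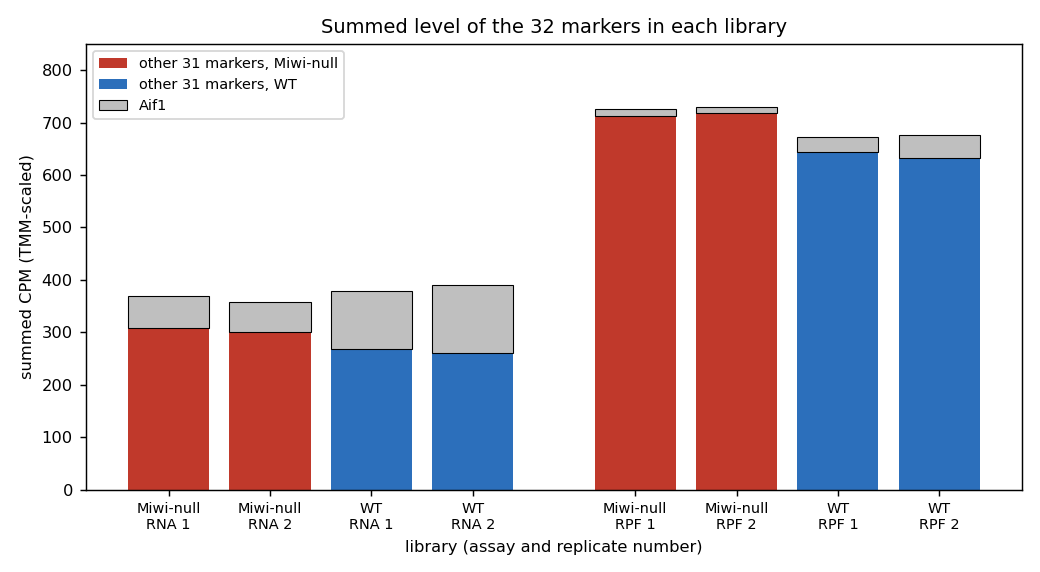
Summed CPM of the 32 markers in each of the 8 libraries, with Aif1 as the grey top of each bar and the other 31 markers below it, in red for Miwi-null and blue for WT. The grey part is 16.3% and 16.2% of the bar in Miwi-null RNA, against 29.1% and 33.1% in WT RNA, and the coloured part is taller in Miwi-null than in WT libraries in both assays.

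TE compares the change in footprints with the change in RNA, in 1 model over both assays. By that test 3 of the 32 markers passed, H2-Ab1 higher and Adgre1 and Mrc1 lower, 9.38% of the markers beside 14.9% of all genes (7.36% higher, 7.56% lower). The median TE change of the markers was -0.14, beside 0.04 over all genes. None of the 3 TE calls stood under all 17 alternatives. Of the 8 markers called in a single assay, the difference between the assays passed in these same 3 and did not in Cd74 (adjusted p = 0.0551), Spi1 (adjusted p = 0.0539), Fcgr3 (adjusted p = 0.11), Csf1 (adjusted p = 0.335) or Folr2 (adjusted p = 0.57). Of these 5, Cd74 and Spi1 passed in 1 of 17 alternatives each, as given above, and the others in none. The median ratio of footprint to RNA CPM over the markers was 1.83 and 2.27 in Miwi-null and 2.02 and 1.95 in WT testes, for libraries of the same number, beside 0.998 and 1.01 in Miwi-null and 1.01 and 0.987 in WT testes over all genes. In single ratios, 25 and 29 of the 32 markers lay above the median of all genes in Miwi-null, and 29 and 26 in WT testes. Of the 32, 23 lay above it in all 4 ratios, and Aif1 and Fcgr3 below it in all 4. How many of all genes lie above it in all 4 was not counted, and whether libraries of the same number are paired is not known. The part of coding length in these ratios was not tested. By the mean of the 4 ratios, the highest were those of the adaptor gene Tyrobp, 7.39 and 6.71 in Miwi-null and 6.08 and 8.65 in WT testes, and of the cathepsin gene Ctss, 7.53 and 5.46 in Miwi-null and 6.12 and 8.87 in WT testes. The genotypes overlapped in both. Cd53 had ratios of 1.53 and 2.75 in Miwi-null and 9.02 and 2.59 in WT testes, and its 9.02, the highest single ratio of the 32, came from 6 RNA counts. Mrc1 had ratios of 1.07 and 1.14 in Miwi-null and 2.01 and 1.83 in WT testes, and H2-Ab1 of 1.98 and 2.33 in Miwi-null and 1.21 and 1.24 in WT testes, without overlap. A ratio compares shares of 2 libraries and measures no absolute rate of translation.

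**Figure D4:**
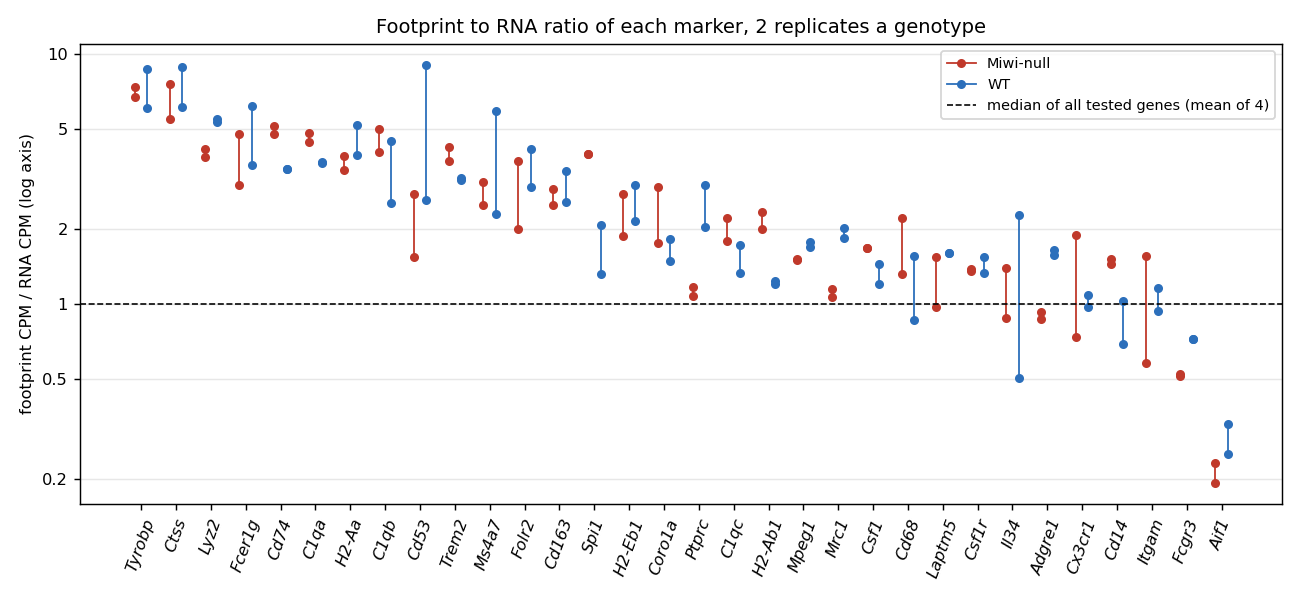
Ratio of footprint to RNA CPM of each of the 32 markers on a log axis, red for Miwi-null and blue for WT, with a line joining the 2 replicates of a genotype and the markers ordered by their mean. The dashed line is the median of all genes tested. Above it in all 4 ratios lie 23 markers, a number not counted over all genes. Fcgr3 and Aif1, at the right, lie below it in all 4.

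A further list of 37 macrophage and monocyte genes, 32 of them tested, was mixed too. In RNA 3 were higher and 3 lower, and in RPF 3 were higher and 1 lower, shares of 18.8% and 12.5%, beside 37.3% and 25.4% of all genes. Ccl8, a chemokine gene of resident macrophages, was at 1.91 and 3.49 CPM in Miwi-null RNA, against 0.537 and 0.893 CPM in WT RNA (log2 change 1.91 ± 0.53, adjusted p = 0.0222), and its footprints were higher too (1.66 ± 0.35, adjusted p = 0.0091). A pair of transcription factor genes of the lineage differed in footprints and not in RNA. Irf8, which with PU.1 directs macrophage genes, was at 39.3 and 39.6 CPM in Miwi-null RPF, against 18.7 and 18.6 CPM in WT RPF (1.08 ± 0.11, adjusted p = 0.0002), and at 9.03 and 8.02 CPM in Miwi-null RNA, against 8.39 and 7.52 CPM in WT RNA. Its TE change was 0.98 ± 0.18 (adjusted p = 0.0099). Maf was at 15.3 and 13.9 CPM in Miwi-null RPF, against 6.31 and 8.85 CPM in WT RPF (0.95 ± 0.18, adjusted p = 0.0053), with a TE change of 1.17 ± 0.28 (adjusted p = 0.0268). Tlr4, the endotoxin receptor gene, showed the reverse, with RNA at 1.84 and 2.61 CPM in Miwi-null libraries, against 0.604 and 0.67 CPM in WT libraries (1.79 ± 0.32, adjusted p = 0.003), and footprints at 1.52 and 1.59 CPM in Miwi-null RPF, against 1.66 and 1.76 CPM in WT RPF.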

How the data were processed

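The deposited tables hold 99671 transcripts of 21949 genes for each replicate number. Fragment counts per transcript are whole numbers without normalization, as the authors deposited them, per the file headers. The FPKM values are the authors' own. For transcripts with a length and with counts, they equal the count over length and 1 constant per library within 1e-06. That constant is not the library total used here. In Miwi-null RNA 1 it was 15785036, where the total was 12721791. Lengths are coding lengths (84.7% are multiples of 3). The build GRCm38 and the tools STAR 2.5.0a, Bowtie 1.2.2 and cutadapt 2.5 are listed in the submitters' processing notes without a role. For the counting program, its use of strand and its treatment of fragments with several matches, the sources used here give nothing. Markers that overlap other genes, among them Csf1 and Cd163, could therefore hold fragments of those. No other sample columns were present, and the merged table was not used.

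The transcript with the highest mean count stood for its gene. Counts were fitted in R 4.3.3 with edgeR 4.0.16 (filterByExpr, minimum count 10, minimum total 15; TMM over 8 libraries; robust quasi-likelihood on 4 groups, 4 residual degrees of freedom; Benjamini-Hochberg over 16051 genes). The scripts were tested on simulated data. DESeq2 1.42.0 was an alternative. The 32 members and the other lists were chosen with earlier results of these data known, so no count of calls over them is independent evidence. All markers were accounted for; from each other list at most the 3 called genes with the largest change per contrast could be named, and the motif letters were chosen after the sequences were seen. The limit for a count of 0 is 3 counts, 0.106 to 0.27 CPM by library, and covers counting error only. Gene positions and promoter windows come from RefSeq on GRCm38.p6.

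Whether the replicate numbers pair the samples is not known, and they were not used as a pairing in the main fit. Deviations of libraries with the same number from their group means correlated at -0.658 across genes between Miwi-null and WT RPF and within 0.04 of 0 in the other pairs of groups. Values near 0 cannot exclude a shared lysate of RNA and RPF where RNA replicates differ little. The chi-square per gene was 1.18 in Miwi-null RNA.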

Additional observations from a re-analysis of the deposited data

How the results depend on the processing

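Of the markers called, Lyz2, Cd163, Aif1 and Mpeg1 in RNA and Cd163, Cd74, H2-Ab1 and Aif1 in RPF kept their call under all 17 alternatives, none of the 3 TE calls did, and no called marker changed sign under any; of the markers not called, 6 in RNA, 12 in RPF and 12 in TE had an estimate that changed sign under at least 1. Leaving out 1 library in turn leaves a lone library assumed to vary like the others. It gave 1428 to 3545 genes higher and 1754 to 4046 lower in RNA with 3 to 9 markers higher, 1 to 3 lower and a marker median of -0.059 to 0.065. In RPF it gave 1378 to 2503 genes higher and 1464 to 2666 lower with 5 to 7 markers higher, 2 to 4 lower and a median of -0.066 to 0.084. In TE it gave 226 to 1914 genes higher and 376 to 1726 lower with 0 to 2 markers higher, 0 to 4 lower and a median of -0.20 to 0.040. Without TMM factors the marker median was 0.081 in RNA and -0.28 in TE, with 679 genes and 0 markers higher in TE, where the all-gene median moved to -0.10 from 0.04; TMM within each assay gave 39% higher of the TE calls. RNA fitted alone gave 4533 genes higher and 4508 lower, with 9 markers higher and 4 lower. RPF fitted alone gave 826 genes higher and 1158 lower, with 3 markers higher and 2 lower. With the replicate number as a block, calls numbered 5022 in RNA, 3061 in RPF and 1237 in TE, the last with 549 higher, 688 lower, 0 markers higher and 1 lower (H2-Ab1 at adjusted p = 0.0609 and Adgre1 at 0.057); a replicate block by genotype left 1 marker lower in TE (Adgre1 at 0.0571), as did DESeq2's Wald test. RPF replicates ran opposite, so the crossed pairing was added after seeing the data: it called 5143 genes lower in RNA with 7 markers lower, 4065 higher and 4118 lower in RPF with 6 markers lower, and 3546 higher and 2993 lower in TE with 5 markers higher and 6 lower. From the authors' FPKM the median footprint to RNA ratio of the markers was 2.37 in Miwi-null and 2.47 in WT testes. The medians over all genes were higher on that scale too, 1.118 and 1.203 in Miwi-null and 1.295 and 1.197 in WT testes. The markers above them numbered 25 and 29 in Miwi-null and 29 and 26 in WT testes, as with CPM. The RNA change followed coding length, with a trend of -0.36 at 300 bases and 0.17 at 4800 bases; with it removed, 7 markers remained called higher and 3 lower in RNA. The cause of each shift was not tested. Depth limits Il34, Ms4a7, Cd53, Trem2 and Spi1 most, the 5 markers with the fewest RNA counts.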

Other observations

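Genes of the interferon response, a list outside the 32 markers, were mostly higher in footprints of Miwi-null testes. Of 21 tested, 11 were higher and none lower in RPF (52.4%, beside 25.4% of all genes), and 7 were higher and 2 lower in RNA (42.9%, beside 37.3%), with median log2 changes of 0.71 and 0.36. In TE 2 were higher. Their summed level was 308 and 339 CPM in Miwi-null RPF, against 229 and 218 CPM in WT RPF, and 133 and 125.5 CPM in Miwi-null RNA, against 99.8 and 102.5 CPM in WT RNA, with no overlap in either assay. Irf7, the factor that amplifies type I interferon genes, was at 5.36 and 7.14 CPM in Miwi-null RPF, against 1.39 and 1.76 CPM in WT RPF (log2 change 2.04 ± 0.22, edgeR adjusted p = 0.0003). Xaf1, an interferon-induced gene, was at 20.8 and 29.1 CPM in Miwi-null RPF, against 8.65 and 7.88 CPM in WT RPF (1.60 ± 0.18, adjusted p = 0.0003). Eif2ak2, which encodes the RNA-activated kinase PKR, was at 22.7 and 21.6 CPM in Miwi-null RNA, against 6.04 and 8.71 CPM in WT RNA (1.59 ± 0.21, adjusted p = 0.0006). Bst2, a surface protein that holds back budding viruses, was lower in RNA, at 3.9 and 2.44 CPM in Miwi-null libraries, against 7.32 and 6.77 CPM in WT libraries (-1.14 ± 0.24, adjusted p = 0.0069). These genes are made by many cell types, and the Leydig cell markers, at 10430 and 11110 summed CPM in Miwi-null RPF against 3007 and 2889 CPM in WT RPF, moved in the same direction; their part in the result was not tested.

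Most cytokine and chemokine genes were near 0: 11 of 25 were tested, 1 was higher and 3 lower in RNA (36.4%, beside 37.3% of all genes), and 2 were higher and 1 lower in RPF (27.3%, beside 25.4%). Il1b, which encodes an inflammatory cytokine of macrophages, was at 2.14 and 2.7 CPM in Miwi-null RNA, against 0.47 and 0.372 CPM in WT RNA (log2 change 2.49 ± 0.40, adjusted p = 0.0018). Its footprints were few, 0.714 and 0.797 CPM in Miwi-null RPF, against 0.0679 and 0.227 CPM in WT RPF. Il1a footprints were at 1.16 and 1.32 CPM in Miwi-null RPF, against 0.17 and 0.227 CPM in WT RPF (2.67 ± 0.45, adjusted p = 0.003). Cx3cl1, the ligand of the receptor that Cx3cr1 encodes, was lower, at 3.06 and 2 CPM in Miwi-null RNA, against 7.99 and 7.14 CPM in WT RNA (-1.56 ± 0.36, adjusted p = 0.0102).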
